A study of Arabidopsis thaliana with 22 samples.

Results

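The loci described here had reads in some blocks of libraries and almost none in the others, with nothing in between. The measure was RNA sequencing of whole Arabidopsis thaliana seedlings, given in CPM, in which each library's counts are divided by its total and its TMM factor and brought to a common scale, not per transcript length. A locus was kept when, in each of 6 blocks of columns, every library was under 1 CPM (off) or every library was at 5 CPM or more (on), with both states present among the blocks. Of 24185 loci in the table, 79 met this, or 0.327%, and 2 of those were left out by name, so that 77 are described. These levels chose the loci, so they are given as a description, with no test.

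The study exposed seedlings of 6 natural accessions, inbred wild strains (T1080, Mh-0, Lip-0, Got-7, C24 and Ba-1), to ultraviolet light (UV) or to a mock treatment. The plants stood in soil and were 14 days old, the lamp gave 312 nm at 4.35 W per square metre, and harvest was 3 h later. No transgene or mutant is named in any group. There were 11 UV and 11 mock libraries in 12 groups, with 2 libraries in each of 10 groups and 1 library in the groups T1080 mock and Got-7 UV. Whether libraries with the same label are from different plantings is not stated, so p-values measure the spread between these libraries, which may be technical. Libraries with the same label often lay in different blocks, so this spread also holds differences between blocks.

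The blocks cut across the labels. Block 1 held the libraries labelled Ba-1 UV 1, Ba-1 mock 1 and Lip-0 mock 1. Block 2 held Ba-1 UV 2, Lip-0 UV 1, Ba-1 mock 2 and Lip-0 mock 2. Block 3 held Lip-0 UV 2, C24 mock 1, C24 mock 2 and Mh-0 mock 1, and block 4 held C24 UV 1, Mh-0 UV 1 and Mh-0 mock 2. Block 5 held C24 UV 2, Mh-0 UV 2, Got-7 mock 1 and T1080 mock 1, and block 6 held Got-7 UV 1, T1080 UV 1, T1080 UV 2 and Got-7 mock 2. Each labelled accession was therefore spread over 2 or 3 blocks, and groups are called by their labels only as labels.

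Inbred accessions of Arabidopsis differ by many small deletions, duplications and diverged alleles, and immune receptor genes are known for this. The receptors of the NLR family sit inside the cell and join a nucleotide-binding domain to leucine-rich repeats, often behind a Toll/interleukin-1 receptor (TIR) domain, and they trigger defence when they sense a pathogen. Many lie in tandem clusters, where some accessions carry a copy that others lack. A read count at a reference locus cannot tell a missing gene from a diverged sequence that does not map or from a gene with no transcript, and in whole seedlings it cannot tell fewer expressing cells from less RNA per cell.

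Total counts ran from 3539510 to 20903894 per library, with a median of 9264888.5, so a count of 3, the limit that a count of 0 allows, stood for 0.150 to 0.851 CPM. That limit covers counting error only. The leaf genes RBCS1A and CAB3 were at 10264 to 20575 and 3184 to 9398 CPM in the 22 libraries. The root genes CASP1, CASP2 and EXPA7 were at most at 0.720, 0.519 and 0.0916 CPM, although roots belong to a whole seedling.

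**Figure D1:**
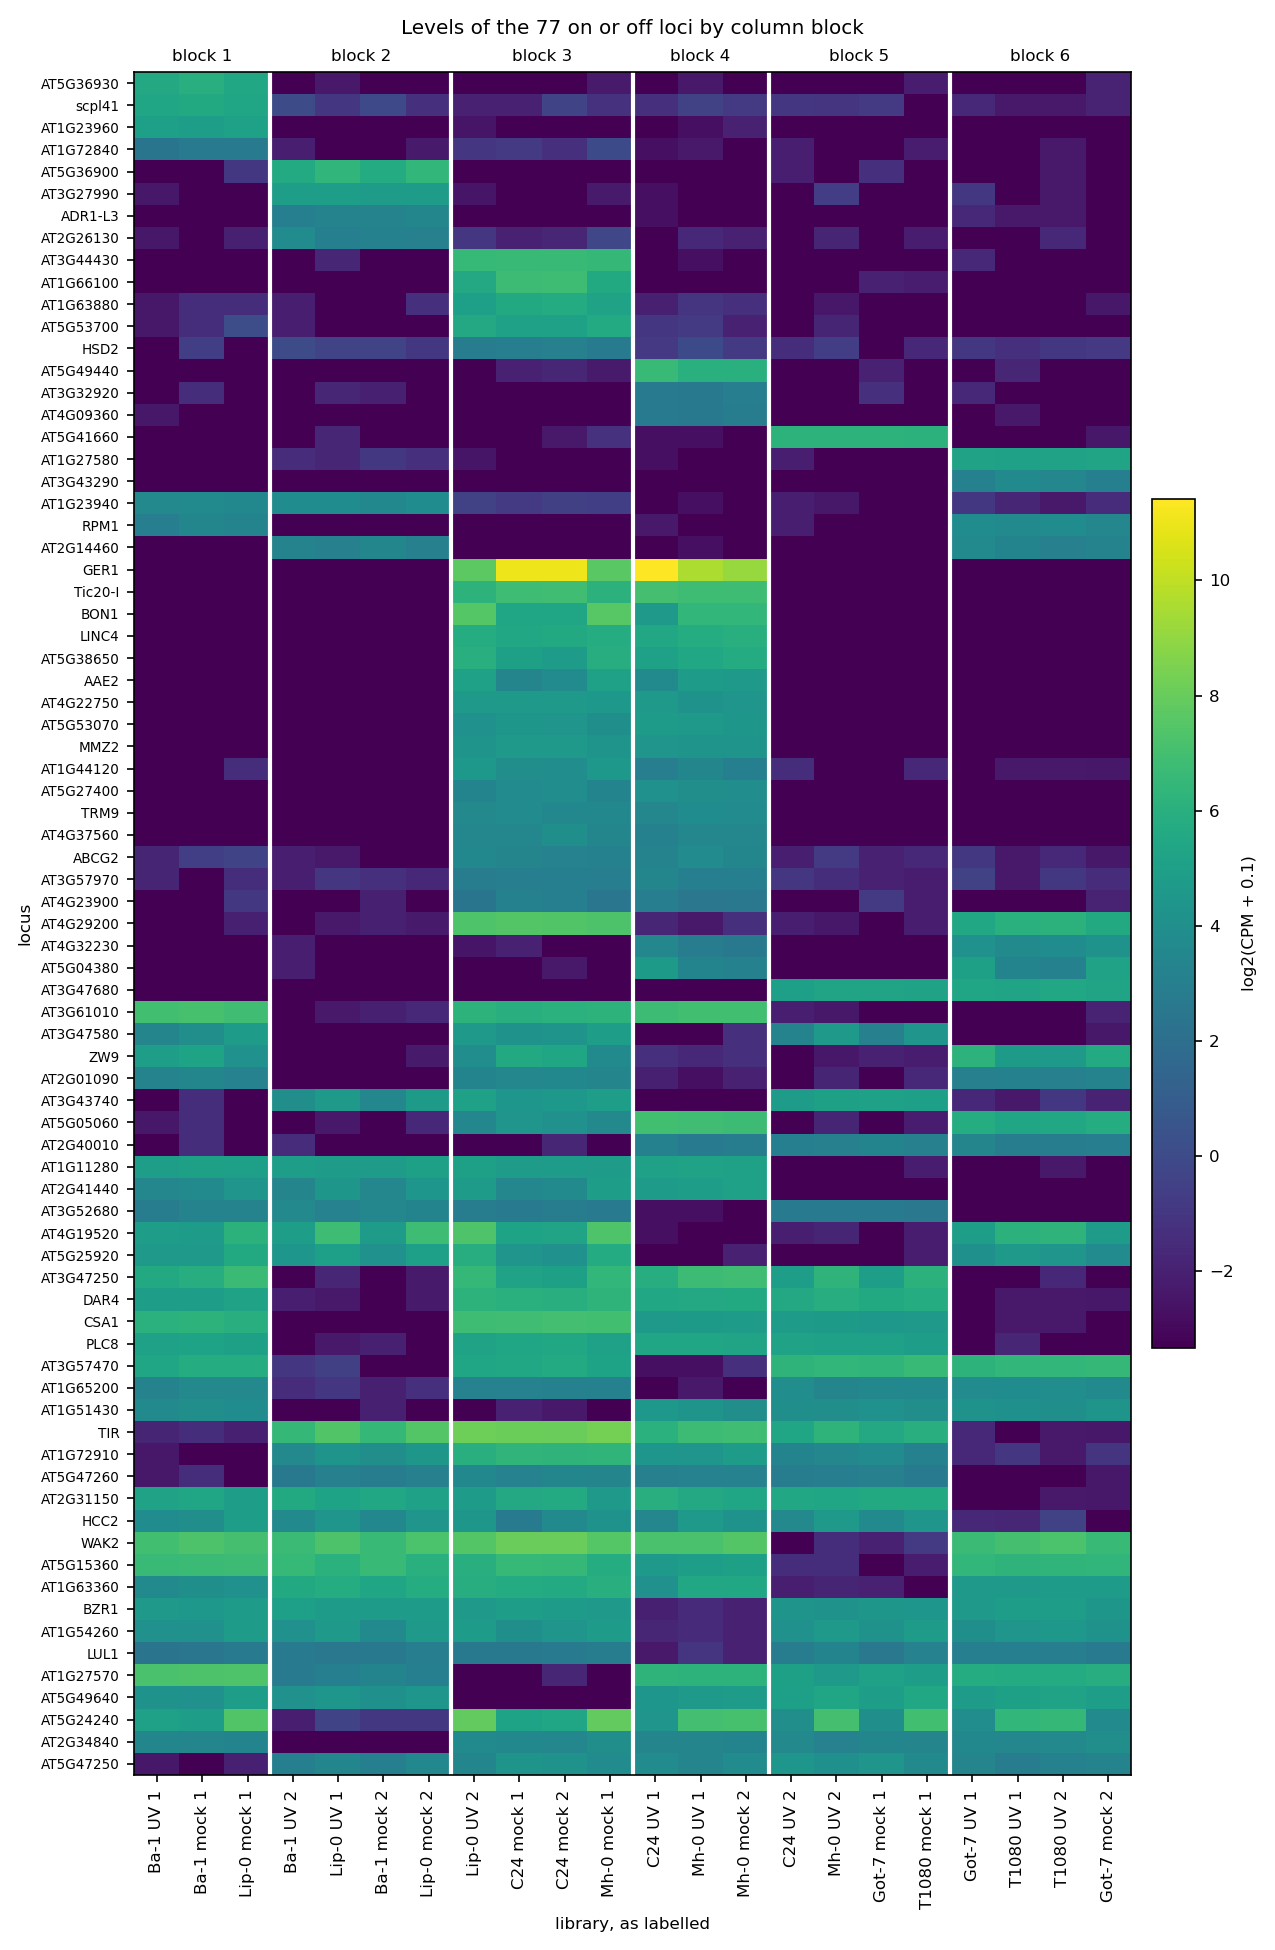
Levels of the 77 loci (rows) in the 22 libraries (columns), as log2(CPM + 0.1), with white lines between the 6 blocks; within a block UV libraries stand left of mock libraries. Each row is either dark (under 1 CPM) or bright (5 CPM or more) across a whole block, and the 16 loci that are bright in blocks 3 and 4 only form one patch.

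The 77 loci showed 32 of the 62 on and off patterns that 6 blocks allow, and 14 patterns had 1 locus each. Block 3 had 53 loci on, block 4 had 44, block 1 had 34, block 6 had 28, and blocks 2 and 5 had 26 each. In numbers of loci off, the blocks had 43, 51, 24, 33, 51 and 49 from block 1 to block 6. Off in a single block were 13 loci, and on in a single block were 19. Pairs of blocks differed at 24 loci (blocks 1 and 5) to 47 loci (blocks 3 and 6). Without the 16 loci on in blocks 3 and 4 only, they differed at 21 (blocks 1 and 3) to 31 (blocks 3 and 6). The numbers on in blocks 3 and 4 both include these 16. The loci lay on all 5 chromosomes, with 22, 8, 15, 9 and 23 of them from chromosome 1 to chromosome 5.

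The gap between the states was wide for most loci. The median over on libraries ran from 5.81 to 765 CPM over the loci, with a median of 25.3 CPM, and the highest value in any off library was 0.995 CPM. For 48 loci the median off library had 0 counts, and for 17 loci every off library had 0 counts. Close to the limits were 3 loci with an off library at 0.9 CPM or more and 3 with an on library under 5.5 CPM. Just outside them, 37 more loci would have entered with off under 2 CPM and on from 4 CPM. One of these is AT2G25450, which codes for the glucosinolate hydroxylase GSL-OH, with at least 9.50 CPM in its on libraries and up to 1.08 CPM in its off libraries.

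Receptors of the immune system were among the classes. By product names in RefSeq, 14 of the 76 loci found there, or 18.4%, were NLR or TIR-domain genes, against 132 of 15866 loci with 5 CPM or more in at least 1 library, or 0.832%. Receptor-like kinases and leucine-rich repeat proteins made up 4 of the 76 (5.26%), against 2.29% of the 15866. F-box, ubiquitin or proteasome genes made up 6 (7.89%), against 4.41%. Uncharacterized products and those known only by a domain of unknown function made up 14 (18.4%), against 7.76%. The other 38 loci (50.0%, against 84.7%) had products of many kinds. Classes were read by keyword, so a gene whose product name lacks the keyword is counted here, as is MMZ2, a ubiquitin-conjugating enzyme variant. These shares are descriptions of a chosen list, without a test.

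RPM1 (AT3G07040) is an NLR that triggers defence against Pseudomonas carrying certain effectors, and it is known to be absent from some accessions. It lies on the minus strand of chromosome 3 at 2225855 to 2229555 in assembly TAIR10.1, the build of all coordinates given here. RPM1 had 7.90 CPM in Ba-1 UV 1, 10.8 in Ba-1 mock 1 and 10.1 in Lip-0 mock 1, the libraries of block 1. In block 6 it had 14.5 CPM in Got-7 UV 1, 13.4 in T1080 UV 1, 14.0 in T1080 UV 2 and 11.4 in Got-7 mock 2. In the other 15 libraries RPM1 was at 0 to 0.138 CPM, with a median of 0. All 7 on libraries lay above all 15 off libraries. The pairs labelled Ba-1 UV, Ba-1 mock, Got-7 mock and Lip-0 mock each had 1 library on either side.

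CSA1 and DAR4 are head-to-head neighbours on chromosome 5 and are known as a pair of NLR partners that work together. CSA1 (AT5G17880) lies on the minus strand at 5908834 to 5913317 and DAR4 (AT5G17890, also called CHS3) on the plus strand at 5916862 to 5923494, with 3544 bases between their starts. The upstream sequences are shown because both genes were off in the same blocks: 250 bases before each annotated start, 5′ to 3′ on the strand of the gene, from RefSeq's TAIR10.1 (accession Columbia). Capitals mark TTGAC or its reverse complement GTCAA, the core of the W-box that WRKY factors bind. CSA1 is at chr5:5913318-5913567 and DAR4 at chr5:5916612-5916861.
CSA1: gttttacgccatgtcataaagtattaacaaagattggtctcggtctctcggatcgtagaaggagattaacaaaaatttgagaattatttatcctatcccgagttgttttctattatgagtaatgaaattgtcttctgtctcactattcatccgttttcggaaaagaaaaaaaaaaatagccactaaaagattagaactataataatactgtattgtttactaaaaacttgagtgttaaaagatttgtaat
DAR4: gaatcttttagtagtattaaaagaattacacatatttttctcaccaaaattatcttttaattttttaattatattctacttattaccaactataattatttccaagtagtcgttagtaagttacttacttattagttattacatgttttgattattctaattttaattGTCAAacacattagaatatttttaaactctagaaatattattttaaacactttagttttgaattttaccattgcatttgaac
The CSA1 window held 0 copies of TTGAC on either strand and the DAR4 window held 1, while 44.9% of 27443 such windows in the genome hold at least 1. Neither held TATAAA on either strand, which 47.3% of the windows hold. These matches describe the reference letters and are not binding sites, and the alleles of the accessions were not read.

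CSA1 and DAR4 were on in blocks 1, 3, 4 and 5 and off in blocks 2 and 6. Over the 14 on libraries CSA1 had 22.8 CPM at the lowest, 45.4 at the median and 131 at the highest, and over the 8 off libraries 0, 0 and 0.104 CPM. DAR4 had 29.2, 48.6 and 75.4 CPM in the on libraries and 0 to 0.135 CPM in the off libraries. The on blocks did not share 1 level. CSA1 had 116 CPM in Lip-0 UV 2, 120 in C24 mock 1, 131 in C24 mock 2 and 124 in Mh-0 mock 1 (block 3), but 25.2 CPM in C24 UV 1, 26.4 in Mh-0 UV 1 and 28.4 in Mh-0 mock 2 (block 4). Every block 3 library was thus above every block 4 library for CSA1, although both blocks were on.

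A run of 3 NLR genes on chromosome 5 had 3 different patterns. AT5G47250 (19185698 to 19188885, minus strand) was off in block 1 only, where it had 0.0929 CPM in Ba-1 UV 1, 0 in Ba-1 mock 1 and 0.142 in Lip-0 mock 1, and its 19 on libraries were at 7.60 to 21.2 CPM. AT5G47260 (19189411 to 19192516, plus strand), which starts 525 bases further on, was off in blocks 1 and 6, with up to 0.284 CPM there and 6.08 to 11.7 CPM in its 15 on libraries. ADR1-L3 (AT5G47280, 19193157 to 19195559, plus strand), a member of the ADR1 helper NLR family, begins 640 bases beyond AT5G47260. It was on in block 2 only, with 7.97 CPM in Ba-1 UV 2, 9.47 in Lip-0 UV 1, 9.65 in Ba-1 mock 2 and 10.8 in Lip-0 mock 2, and at most 0.216 CPM in the other 18 libraries. All 3 genes were on in block 2 and all 3 off in block 1.

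On chromosome 1, the small TIR-domain genes AT1G72910 (27435306 to 27437192) and TIR (AT1G72930, 27439240 to 27440464), both on the plus strand, were off in blocks 1 and 6. TIR had 39.9, 109 and 325 CPM at the lowest, median and highest of its 15 on libraries and up to 0.284 CPM in its 7 off libraries. AT1G72910 had 8.81, 20.1 and 79.8 CPM in on libraries and up to 0.405 CPM in off libraries. Their coding sequences are 98.1% identical over 528 bases in the reference, so that reads could have been split or lost between them and both values are uncertain. AT1G72920, which lies between them, took no clean states and ranged from 0 to 89.3 CPM.

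**Figure D2:**
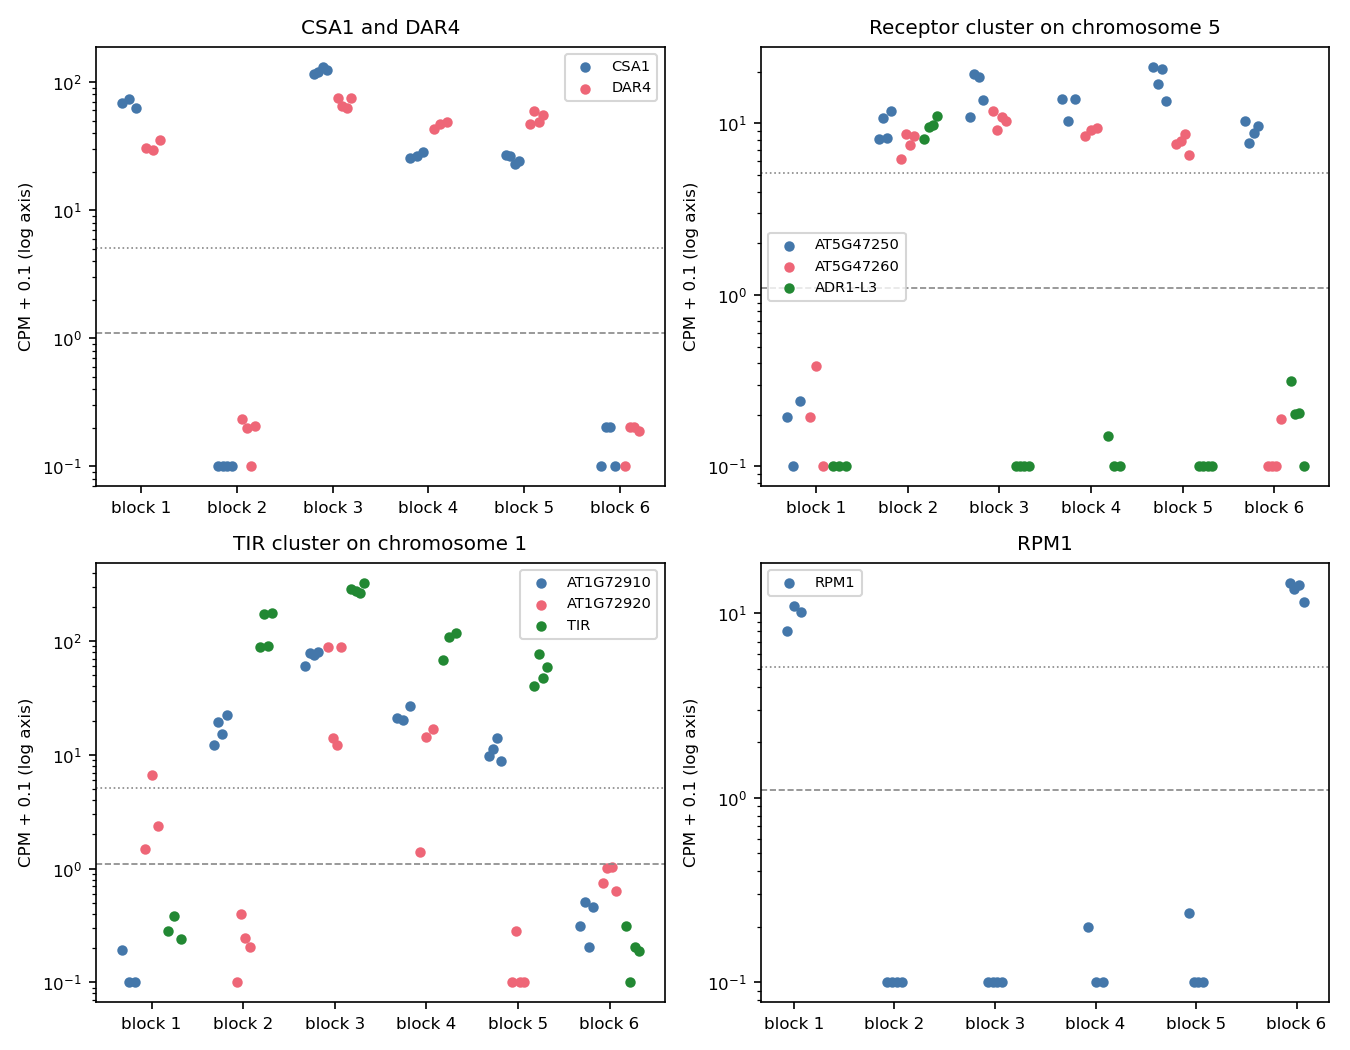
CPM + 0.1 on a log axis by block, 1 point per library, for CSA1 with DAR4, the 3 NLR genes on chromosome 5, the TIR-domain genes on chromosome 1 and RPM1; the dashed and dotted lines mark 1 and 5 CPM. CSA1 and DAR4 are both near 0 in blocks 2 and 6, and block 2 is the only block in which all 3 genes of the run on chromosome 5 are on.

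The other 6 NLR or TIR loci, 4 of them named here as members of the class after their values were seen, had 5 further patterns. AT5G36930, a TIR-NBS-LRR gene, was on in block 1 only, with 47.5 CPM in Ba-1 UV 1, 59.0 in Ba-1 mock 1 and 43.5 in Lip-0 mock 1, against at most 0.179 CPM elsewhere. AT1G72840 was also on in block 1 only, near the limit at 5.11 to 6.26 CPM. AT1G63880 was on in block 3 only (31.9 to 52.5 CPM) and AT4G09360 in block 4 only (5.98 to 7.22 CPM). AT1G63360 was off in block 5 only, where it had up to 0.183 CPM, and had 13.4 to 63.6 CPM in its 18 on libraries. AT4G19520 was off in blocks 4 and 5 and had 26.6 to 162 CPM in its on libraries. Of the 14 receptor loci, 12 had another locus of the class within 5 coding genes in the table. The same held for 87 of the 132 receptor loci with 5 CPM or more somewhere, or 65.9%, so position near another receptor was common in the class as a whole.

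Among the receptor-like kinases and leucine-rich repeat proteins, a class read from product names, WAK2 (AT1G21270) was off in block 5 only. It is a wall-associated kinase that binds pectin. WAK2 had 0 CPM in C24 UV 2, 0.275 in Mh-0 UV 2, 0.159 in Got-7 mock 1 and 0.458 in T1080 mock 1, and 96.8 to 259 CPM in the other 18 libraries. The S-locus lectin kinase AT1G11280 was off in blocks 5 and 6, with up to 0.114 CPM, and its 14 on libraries stayed within 28.1 to 35.6 CPM. The leucine-rich repeat protein AT3G43740 was off in blocks 1, 4 and 6, with up to 0.415 CPM, against 11.4 to 34.1 CPM in on libraries. The leucine-rich repeat kinase AT3G47580 was off in blocks 2, 4 and 6, with up to 0.314 CPM, against 8.60 to 30.2 CPM in on libraries. No 2 of these 4 genes had the same pattern.

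Single blocks also lacked reads at genes outside immunity. BZR1 (AT1G75080), a transcription factor that carries the brassinosteroid signal, had 0.150 CPM in C24 UV 1, 0.258 in Mh-0 UV 1 and 0.157 in Mh-0 mock 2, the libraries of block 4. Its other 19 libraries were at 18.6, 25.2 and 31.6 CPM at the lowest, median and highest. AT1G27570, annotated as a phosphatidylinositol kinase, was off in block 3 only, with up to 0.201 CPM. AT5G24240, annotated as a phosphatidylinositol 4-kinase gamma, was off in block 2 only, with 0.135 to 0.697 CPM. AT2G31150, annotated as an ATP-binding protein, was off in block 6 only, with at most 0.104 CPM and 25.1 to 61.2 CPM elsewhere. HCC2, which resembles the mitochondrial copper chaperone of cytochrome oxidase, was also off in block 6 only, with up to 0.623 CPM against 6.97 to 31.0 CPM.

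On in a single block were several loci without a named function. AT3G44430, uncharacterized, was on in block 3 with 92.9 CPM in Lip-0 UV 2, 101 in C24 mock 1, 102 in C24 mock 2 and 90.0 in Mh-0 mock 1, and had up to 0.216 CPM elsewhere. AT5G49440, also uncharacterized, was on in block 4 with 97.6 CPM in C24 UV 1, 66.1 in Mh-0 UV 1 and 64.0 in Mh-0 mock 2. AT5G41660, of the same kind, was on in block 5 with 73.2 CPM in C24 UV 2, 73.1 in Mh-0 UV 2, 74.5 in Got-7 mock 1 and 70.3 in T1080 mock 1. The highest library of the block was 1.13 times the lowest for AT3G44430, 1.52 times for AT5G49440 and 1.06 times for AT5G41660. Not all such loci were as even. For the thionin gene AT1G66100, also on in block 3 only, the highest library was 2.37 times the lowest. The libraries of each block carried 2 to 4 accession labels. AT5G36900 was on in block 2 (51.6 to 86.2 CPM), and the serine carboxypeptidase-like gene scpl41 in block 1 (39.7 to 50.2 CPM). The F-box gene AT1G27580 was on in block 6 (33.7 to 38.2 CPM).

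Other patterns were spread over blocks. AT4G29200, related to beta-galactosidase, was on in blocks 3 and 6 (45.1 to 179 CPM), and the uncharacterized AT4G32230 in blocks 4 and 6 (6.12 to 18.5 CPM). AT3G47680, annotated as DNA binding, was on in blocks 5 and 6 at 31.9 to 44.5 CPM and had 0 counts in all 14 other libraries. AT2G14460 was on in blocks 2 and 6 (8.32 to 12.5 CPM) and AT1G23940, which the reference table does not hold, in blocks 1 and 2 (11.5 to 14.3 CPM). AT3G61010, ferritin-like, was on in blocks 1, 3 and 4 (60.7 to 141 CPM). ZW9, a TRAF-like gene, was on in blocks 1, 3 and 6 (12.4 to 72.7 CPM). AT5G05060, cystatin-like, was on in blocks 3, 4 and 6 (11.2 to 122 CPM), and AT2G40010, a ribosomal protein L10 family gene, in blocks 4, 5 and 6 (6.40 to 10.4 CPM). The F-box gene AT3G52680 was off in blocks 4 and 6, the peptidase gene AT3G57470 in blocks 2 and 4, and AT1G51430 in blocks 2 and 3.

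Some of the loci were neighbours. Of the 77, 14 had another within 5 coding genes, making 9 pairs, of which 5 were next to each other and 3 had the same pattern. Several of the 14 were NLR or TIR genes, a class in which nearness to another receptor was common. No share was computed for other loci, so whether the 77 lie closer together than others was not tested. The same-pattern pairs were CSA1 with DAR4, AT1G72910 with TIR, and AT3G47250 with PLC8. PLC8 (AT3G47290, chromosome 3, 17420397 to 17424342) codes for a phospholipase C and had 29.5 to 43.7 CPM in blocks 1, 3, 4 and 5. AT3G47250 (17399757 to 17401871), of unknown function, had 28.8 to 120 CPM in the same blocks, and both were at or under 0.208 CPM in blocks 2 and 6. HSD2, a hydroxysteroid dehydrogenase 5 coding genes from PLC8, was on in block 3 only (6.58 to 8.55 CPM). AT1G27570 and its neighbour AT1G27580 had patterns that shared block 6 alone as on, and AT5G36900 and AT5G36930 had none in common.

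Of 120 coding loci in the table that flank the 77, 48 were at 5 CPM or more in all 22 libraries and 21 were under 1 CPM in all 22. Over the whole table of 24185 loci, 11325 were at 5 CPM or more in all libraries and 5697 were under 1 CPM in all. Of the 120, 10 were themselves among the 77, and 4 more were under 1 CPM in every library where their neighbour was off. The remaining 37 lay between these states. Flanks of other loci were not counted in this way, so nothing is read from the 10 and the 4.

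The largest pattern held 16 loci on in blocks 3 and 4 only, that is, in 7 libraries, and 12 of them had 0 counts in all 15 other libraries. Of the other 61 loci, 5 had 0 counts in every off library. Tic20-I, a part of the chloroplast protein import channel, had 71.7, 112 and 134 CPM at the lowest, median and highest of the 7 libraries and 0 in the other 15. GER1, a germin-like protein, had 203, 765 and 2717 CPM in the 7, and BON1, a copine that restrains cell death, had 24.6, 85.4 and 193 CPM, both with 0 counts in the 15. The other 13 included LINC4, a nuclear lamina protein, MMZ2, a ubiquitin-conjugating enzyme variant, the proteasome maturation factor AT5G38650, AAE2, ABCG2 and TRM9.

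Most of the 16 loci overlap other annotated genes. In TAIR10.1, the span of 15 of the 16 (93.8%) overlaps another gene, against 16 of the 60 other loci with an annotation (26.7%) and 6596 of 23847 in the table (27.7%). On the same strand the counts were 8 of 16 (50.0%), 6 of 60 (10.0%) and 1079 of 23847 (4.52%). At least 50% of the exon bases were shared in 13 of 16 (81.2%), 3 of 60 (5.00%) and 626 of 23845 (2.63%). At least 50% of the coding bases were shared on the same strand in 6 of 16 (37.5%), 0 of 59 and 13 of 23527 (0.0553%). No test was made, since the 16 were chosen by their levels. The annotation was not used by the rule.

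The overlapping partners found in the table did not switch on and off with them. Other partners were not in the table and could not be checked. Among these were AT1G04945 and AT4G23895, which share most of the coding bases of Tic20-I and AT4G23900. Of 10 partners in the table, 0 were among the 77, 9 were at 1 CPM or more in all 22 libraries, and for all 10 the range in the 7 libraries overlapped that in the 15. AT5G61910, which overlaps BON1 on the same strand, had 20.8 to 49.3 CPM in the 7 libraries and 22.0 to 32.2 CPM in the 15. APE1, which overlaps AT5G38650, had 122 to 190 CPM in the 7 and 98.0 to 166 CPM in the 15. Medians were further apart at some partners. RCF3, which overlaps AT5G53070, had medians of 37.7 CPM in the 7 and 19.9 in the 15. For AT1G72600, which overlaps GER1, they were 1.55 and 3.11 CPM. Over the whole table, 15 of the 626 loci that share at least 50% of their exon bases had at least 50 counts in the 7 libraries together and 0 in the 15, and 0 had the reverse. Among the other 23221 loci, 13 did and 15 had the reverse. The split into 7 and 15 libraries came from the 16 loci. Those of the 16 with 0 counts in the 15 are included in these counts, so they describe the table and add no separate evidence. The submitters' processing notes name both TAIR9 and TAIR10, without roles, and whether these 7 columns were counted against another annotation was not tested. Without the 16, the NLR and TIR genes were 14 of 60 annotated loci, or 23.3%.

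**Figure D3:**
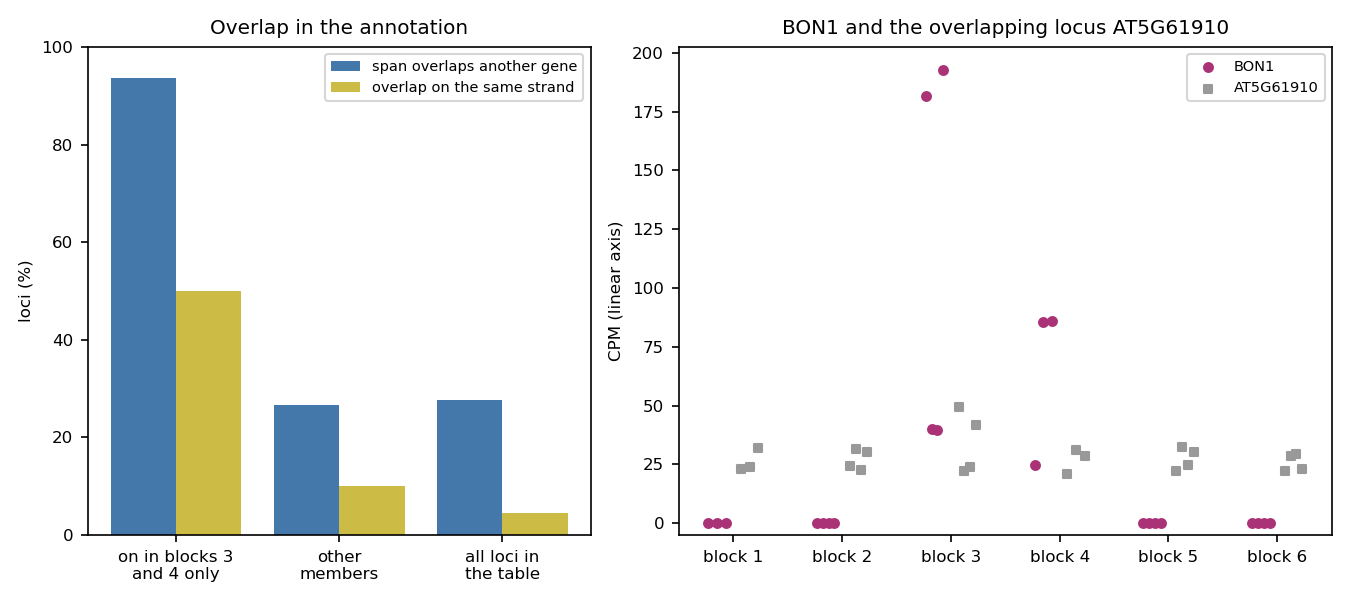
Left, share of loci (%) whose annotated span overlaps another gene on any strand or on the same strand, for the 16 loci on in blocks 3 and 4 only, the 60 other annotated loci and all 23847 loci. Right, CPM on a linear axis by block, 1 point per library, for BON1 and for AT5G61910, which overlaps it: BON1 is at 0 outside blocks 3 and 4, where AT5G61910 keeps 22.0 to 32.2 CPM.

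Near-identical copies touched 13 of the 75 loci with coding sequence, which had another gene of at least 95% identity over at least 100 bases. They were Tic20-I, AT1G27580, MMZ2, AT1G72910, TIR, AT3G32920, AT3G44430, AT3G52680, AT4G23900, AT5G05060, AT5G27400, AT5G38650 and BON1. For 7 of the 13, Tic20-I, MMZ2, AT3G44430, AT4G23900, AT5G27400, AT5G38650 and BON1, the closest copy was the overlapping partner itself. The values of the 13, and those of loci that overlap another gene, are uncertain, since neither the counting program nor its use of strand is named in the submitters' notes and shared reads could have been split or dropped.

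The labelled accessions run across the blocks in a way that ties all 6 blocks together, so a locus uniform within blocks has to take both states within at least 1 labelled accession. That no locus of the 77 followed the accession labels is therefore fixed by the rule, and the counts here describe where the changes fell. Each locus took both states within a median of 3 and up to 6 of the 6 accessions. By accession, 28 loci took both states within Ba-1, 52 within C24, 28 within Got-7, 54 within Lip-0, 52 within Mh-0 and 28 within T1080. Of the 10 labelled pairs of libraries, each locus differed in 1 to 8, with a median of 3. The libraries labelled C24 mock are both in block 3 and those labelled T1080 UV both in block 6, so neither pair can differ under the rule. Those labelled Lip-0 UV differed at 43, those labelled C24 UV and Mh-0 UV at 38 each, those labelled Ba-1 UV, Ba-1 mock, Got-7 mock and Lip-0 mock at 28 each, and those labelled Mh-0 mock at 27.

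**Figure D4:**
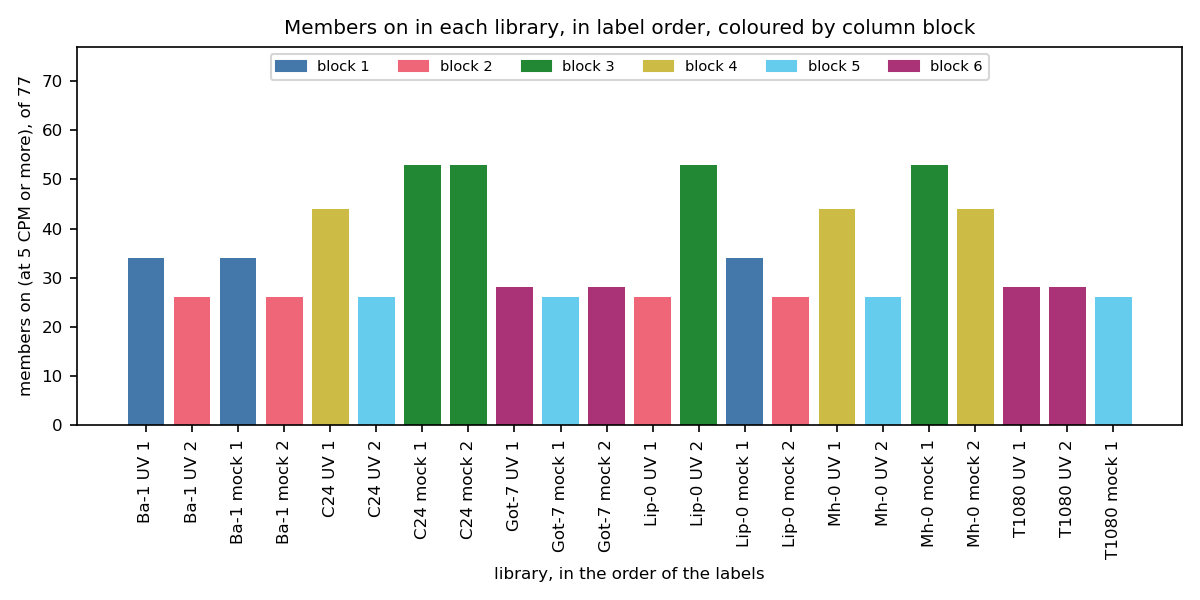
Number of the 77 loci on (5 CPM or more) in each library, in the order of the labels with UV before mock, coloured by block. Libraries with 1 label can differ, as C24 UV 1 with 44 loci on and C24 UV 2 with 26, while libraries of a block have the same number by construction.

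The same limits applied to the labelled accessions in place of the blocks kept 32 loci, or 0.132% of the table. By the way labels and blocks cross, none of them can be among the 77. All 32 were on in the libraries labelled Lip-0, T1080 and Mh-0 and off in those labelled Got-7, C24 and Ba-1, which are the last 11 and the first 11 columns of the table. Leaving out 1 library, Ba-1 UV 1, raised this number to 67. Applied to labelled treatment, the limits kept 0 loci. In all, 142 loci (0.587%) were under 1 CPM or at 5 CPM or more in every library with both states present. Of these, 79 followed the blocks, 32 followed the labelled accessions in that 1 pattern, and 31 followed neither.

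Within blocks, levels of many of the 77 loci also differed between libraries. Each block held libraries from both sides of the division seen in the 32 loci (labelled Lip-0, T1080 or Mh-0, and labelled Got-7, C24 or Ba-1). AT5G24240 in block 5 had 135 CPM in Mh-0 UV 2 and 124 in T1080 mock 1, against 15.7 in C24 UV 2 and 15.8 in Got-7 mock 1. BON1 in block 3 had 182 CPM in Lip-0 UV 2 and 193 in Mh-0 mock 1, against 40.3 in C24 mock 1 and 39.8 in C24 mock 2. GER1 went the other way in block 3, with 211 CPM in Lip-0 UV 2 and 203 in Mh-0 mock 1, against 2071 in C24 mock 1 and 2081 in C24 mock 2.

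Such differences ran through the whole table and are not particular to the 77. The sides did not overlap for 88.2%, 73.1%, 79.2%, 90.9%, 61.5% and 67.9% of the loci on in blocks 1 to 6, against 88.6%, 80.9%, 88.5%, 91.2%, 80.2% and 81.5% of the 11325 loci at 5 CPM or more in all libraries. The division of the accessions was chosen after the 32 loci were seen, and with 1 to 2 libraries a side in each block it has no test here. Blocks 1 and 4 had 1 library on 1 side and 2 on the other, and the other blocks had 2 a side. Sides part more easily with fewer libraries, so the shares are not compared between blocks. The ratio of the highest to the lowest library of a block had a median of 1.51 over the 77 and was under 2 in 60, from 2 to 4 in 12 and 4 or more in 5, and reached 10.2 in GER1.

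No locus of the 77 passed the threshold for labelled UV, but the rule itself bears on this. It makes each locus differ in at least 1 of the 10 labelled pairs. In the model of 12 group means, the spread within groups therefore holds on and off states too. Counts of 0 from that model are not read as a result about the loci. All 77 were among the 18149 loci tested with edgeR's quasi-likelihood F test (adjusted p under 0.05 called). For the mean labelled UV effect over the 6 accessions, 0 of the 77 were called and 3 had an unadjusted p under 0.05, where the share called over all loci was 0% and 507 loci had an unadjusted p under 0.05. Their median log2 change was -0.11, against 0.01 over all loci tested. The 2 loci with the smallest p were AT2G31150 (log2 change -3.32, SE 0.88, edgeR adjusted p = 1.00) and HCC2 (log2 change -1.65, SE 0.56, edgeR adjusted p = 1.00). These are the 2 loci off in block 6 alone, and 3 of the 4 libraries of that block are labelled UV. DESeq2 also called 0 of the 77, and 2 of all loci. Without the library Got-7 mock 2, edgeR called 2 of the 77 and 7 of all loci.

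Within single accessions, 0 of the 77 were called in any. The background was 0.309% of loci called in C24 (56 loci), 0.00551% in T1080 (1 locus) and 0% in Ba-1, Got-7, Lip-0 and Mh-0. Unadjusted p-values under 0.05 were found for 13 of the 77 in C24, 9 in T1080, 7 in Lip-0, 5 in Mh-0, 1 in Got-7 and 0 in Ba-1, and for 2732, 1424, 725, 1724, 303 and 313 of all loci in the same order. In C24 and T1080 the libraries labelled UV and mock shared no block, in Got-7, Lip-0 and Mh-0 they shared 1, and in Ba-1 they shared both, so the changes outside Ba-1 hold the on and off states. AT2G40010 had a log2 change of 5.99 (SE 1.63, edgeR adjusted p = 0.138) in C24, where the UV libraries lay in blocks 4 and 5, in which it was on, and both mock libraries in block 3, in which it was off. Over the 6 accessions, edgeR called 57 loci of the table. DESeq2 called 12 of the 77 and 688 of all loci, and fits on the libraries of 1 accession alone called 40 of the 77 and 4422 of all loci. With Got-7 mock 1 left out edgeR called 3 of the 77 and 75 of all loci, and with Got-7 mock 2 left out 3 and 78. It called 2 of the 77 and 265 of all loci without the library Mh-0 mock 1, and 3 and 597 without the library Mh-0 mock 2.

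With the block as a term in the model, so that UV and mock were compared within blocks, 0 of the 77 were called, 0 had an unadjusted p under 0.05, and their median log2 change was -0.02, against 0.01 over all loci. DESeq2 called 0 of the 77 and 0 of all loci as well. Over all loci edgeR called 0%, with 92 loci at an unadjusted p under 0.05. The model had no term for the division of labels seen within blocks, so those differences entered its spread. Counts of 0 from it are therefore not read as absence of a UV effect. The locus with the smallest p was AT4G23900, a nucleoside diphosphate kinase gene, with a log2 change of -1.09 (SE 0.54, edgeR adjusted p = 1.00). For differences of the UV effect between labelled accessions, 0 of the 77 were called and 7 had an unadjusted p under 0.05, with 0% called over all loci and 1632 at an unadjusted p under 0.05.

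Differences between labelled accessions were called at 18 of the 77 (23.4%), against a background of 55.8%, or 10123 loci, by the same edgeR test, which also holds the on and off states. By the rule, the spread within labelled groups holds these states too, so the lower share is not read as a result about the 77. The smallest adjusted p was 3.93e-05, at AT1G23940. It had 11.9 CPM in Ba-1 UV 1, 14.2 in Ba-1 UV 2, 12.5 in Ba-1 mock 1 and 11.8 in Ba-1 mock 2, and 14.3 in Lip-0 UV 1, 11.5 in Lip-0 mock 1 and 14.0 in Lip-0 mock 2. It had 0.630 CPM in Lip-0 UV 2 and no more than 0.603 CPM in libraries with the other 4 labels. The next were AT1G27580 (edgeR adjusted p = 0.00124), AT2G40010 (0.00137), scpl41 (0.00571) and AT3G57970 (0.00781), a gene with plant Tudor-like domains. The number called was 11 of the 77 and 9188 of all loci without C24 mock 1, and 11 and 9089 without C24 mock 2. It was 9 of the 77 and 9303 of all loci without T1080 UV 1, and 10 and 9332 without T1080 UV 2.

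Of 49 listed loci known from natural variation and immunity, 47 were in the table and 1, RPM1, was among the 77. That is 2.13% of the 47, against 0.327% of the whole table that followed the blocks, and nothing is read from a count of 1. At 5 CPM or more in all 22 libraries were 22, among them the receptor FLS2 for bacterial flagellin (17.9 to 58.1 CPM) and the NLR RPP8 (34.1 to 71.0 CPM). Under 1 CPM in all 22 were 4, namely RPS2 with 0 counts throughout, HR1, HR2 and RLM1. At 10 others both states occurred in some libraries, but the rule was not met in every block. The last 10 fell in none of these groups. The NLR gene WRR4, for example, was under 1 CPM in 9 libraries and at 5 CPM or more in 11, with up to 135 CPM, and the floral repressor FLC was under 1 CPM in 2 and at 5 CPM or more in 15.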

How the data were processed

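The authors deposited whole-number counts per locus, not normalized, for 22 libraries and 24185 loci, and 0 columns were left without a sample. Per the submitters' processing notes, TopHat and FastQC were used, with TAIR10 and TAIR9 listed as builds, without versions or roles. Neither the counter, nor its annotation or strand setting, is given in those notes or the labels. Libraries were grouped by their labels and the blocks by the column numbers of the rule. Members and lists were chosen with earlier results of these data known.

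CPM (counts per library total, on a common scale) were computed from the counts with TMM factors (edgeR 4.0.16, R 4.3.3). Names, products and positions came from RefSeq for TAIR10.1 by locus code. The authors' build may differ, so positions describe the reference only. Neighbours were coding genes up to 5 apart. Copies were found with BLAST 2.17.0. Loci reaching 1 CPM in 2 or more libraries (18149) entered edgeR's quasi-likelihood F test (robust, 12 group means, Benjamini-Hochberg adjustment), also with the block as a term. The 2 groups of 1 library took the spread of the rest, and the biological coefficient of variation was 26.7%. SEs came from the fold change and F. DESeq2 1.42.0, other limits, scalings and filters, and leaving out each library were alternatives. The scripts were tested on simulated data.

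Named were loci next to or near another, the locus with the highest on median of each pattern (with 2 more in patterns of over 5), loci of the list of natural variation and immune genes, and up to 5 called in a contrast. The other names in the text were chosen after their values were seen.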

Additional observations from a re-analysis of the deposited data

How the results depend on the processing

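The number of loci on or off by block, 77, was 42 with limits of 0.5 and 10 CPM and 48 with 1 and 10 CPM. It was 55 to 99 under the other limits and scalings and 77 to 80 with any 1 library left out. The 32 loci that followed labelled accessions became 8 with 0.5 and 10 CPM, 73 with 2 and 5 CPM, 15 with 1 and 10 CPM and 12 with off at 3 counts or fewer, and 32 to 67 with 1 library left out. The 140 loci at 2 levels in every library, counted without the 2 loci left out by name, became 55, 263, 76 and 76 under the same settings, and 140 to 169 with 1 library left out. Depth limits these numbers, since 3 counts stood for up to 0.851 CPM. Members called for the mean labelled UV effect numbered 0 to 2 with 1 library left out (0 to 7 of all loci). For UV within accessions the number was 12 with DESeq2 (688 of all loci) and 40 with fits on 1 accession's libraries alone (4422 of all loci). It was 0 to 3 with 1 library left out (1 to 597 of all loci), against 0 (57 of all loci). For differences between labelled accessions, 18 (10123 of all loci) became 9 without a filter on low counts (9837 of all loci). With 1 library left out it was 9 to 20 (9089 to 10467 of all loci). With the block as a term the number of members called was 0 with any 1 library left out (0 of all loci). Without Got-7 UV 1 or T1080 mock 1 a labelled group was lost, so the comparisons over all 6 accessions had no value. The number called within the other 5 accessions was then 0 (56 of all loci in each case). Deviations of same-numbered UV and mock libraries correlated at 0.598 in Ba-1, where same-numbered libraries lie in the same block. They correlated at -0.00059 in C24, -0.336 in Lip-0 and -0.281 in Mh-0, so the replicate numbers do not pair the libraries across accessions. With the replicate block, the members called were 0 for the mean UV effect (0 of all loci) and 0 within accessions (21 of all loci). They were 17 between accessions (9767 of all loci) and 0 with the column block (0 of all loci). The cause of these changes was not tested.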
